A study of Arabidopsis thaliana with 6 samples.

Results

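The histone genes of Arabidopsis thaliana were examined in root RNA-Seq libraries. Members were taken by locus identifier from a fixed list, which was proposed with earlier results of these data known. No measured value entered the rule itself. The group holds 41 of the 33602 genes in the count files. It comprises 8 H4, 5 H3.1, 4 canonical H2A and 10 H2B genes, 3 H3.3 and 3 H2A.Z genes, 2 H2A.X and 3 H2A.W genes, and 3 genes of the linker histone H1. Where the reference gives no gene symbol, a gene is named by its locus and class. The BAP libraries came from primary roots of ipt1,3,5,7 mutants aged 7 d and collected 4 h after transfer to 1 µM 6-benzylaminopurine (BAP), a synthetic cytokinin (n = 3 libraries). The DMSO libraries came from the same mutant at the same age, collected 1 h after transfer to the solvent dimethyl sulfoxide (n = 3 libraries). All 6 libraries carry the mutations in 4 isopentenyltransferase (IPT) genes, which act in cytokinin synthesis, and no wild type was analysed here, so the comparison describes a cytokinin-deficient root that was given cytokinin. Treatment and time since transfer differed together, so their effects cannot be told apart. Root tips and lateral roots had been cut away, so the material was main root, in which the mutant does not start secondary growth without added cytokinin.

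Nuclear DNA is wound around nucleosomes made of the core histones H2A, H2B, H3 and H4, and H1 binds the linker DNA between them. Canonical H2A, H2B, H3.1 and H4 supply new nucleosomes behind the replication fork, and their genes are known for high expression in S phase. The replacement variants H3.3 and H2A.Z enter chromatin outside replication as well, H3.3 mainly over transcribed genes and H2A.Z near gene starts. H2A.X is phosphorylated at DNA breaks, and H2A.W is the plant variant of heterochromatin. H4 and H2B partner both kinds of H3 and H2A, so they are grouped here with the replication-dependent genes by gene type and not by partner. In plants the transcripts of replication-dependent histone genes carry poly(A) tails, unlike most of those in animals.

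Coding sequences of the H3 and H4 genes were compared, because near-identical stretches bear on how reads can be assigned. H3.1 and H3.3 are shown first because they stand on either side of the main contrast. AT5G65360 (H3.1, TAIR10.1 chr5:26119859-26120581, minus strand) and AT4G40040 (H3.3, TAIR10.1 chr4:18557149-18558945, minus strand) differed at 29 of 120 bases between coding bases 61 and 180. Capitals mark the bases at which they differ.
AT5G65360: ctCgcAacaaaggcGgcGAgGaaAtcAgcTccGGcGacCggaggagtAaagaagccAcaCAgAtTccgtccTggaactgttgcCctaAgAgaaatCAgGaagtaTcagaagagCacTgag
AT4G40040: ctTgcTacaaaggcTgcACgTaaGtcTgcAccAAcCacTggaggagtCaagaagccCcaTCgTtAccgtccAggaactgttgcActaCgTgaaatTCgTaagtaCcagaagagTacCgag
Over the whole coding region, 15 pairs of an H3.1 and an H3.3 gene were 74.0% to 80.3% identical, against 80.3% to 89.5% among the H3.1 genes. The 28 pairs of H4 genes were 78.8% to 98.1% identical, with a median of 82.4%. The first 120 coding bases of AT3G46320 and AT3G45930, both H4, did not differ, and are printed once as the clearest case of a stretch whose reads have 2 possible origins.
AT3G46320: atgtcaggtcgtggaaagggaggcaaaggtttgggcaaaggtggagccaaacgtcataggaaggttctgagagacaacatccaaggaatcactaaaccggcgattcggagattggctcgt
Of all 50-base stretches of exon, AT3G46320 shared 27.9% with AT3G45930, AT1G07660 shared 30.8% with another gene, and none of the 6 H3.3 and H2A.Z genes shared any. How reads with several matches were counted was not given in the sources used here, so the split between near-identical H4 genes is uncertain.

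Gene structure differed between the classes, counted on the gene model with the fewest coding exons. The coding region lay in a single exon in 23 of the 27 replication-dependent genes, the exceptions being the 4 canonical H2A genes. It was split over 2 to 4 exons in all 6 replacement genes. It was also split in all H2A.X and H2A.W genes and in 2 of the 3 H1 genes. AT1G07660 (H4), counted as single, also has a model with 2 coding exons. Median GC content of the exons was 40.8% in the replication-dependent and 41.8% in the replacement genes. A few members lie side by side in the TAIR10 coordinates of the files. AT4G40030 and AT4G40040, both H3.3, are 214 bases apart, and AT5G10390 and AT5G10400, both H3.1, are 738 bases apart. AT2G28720 (H2B) and HIS4 (H4) face each other on opposite strands across 1809 bases with 2 genes between them. HTA12 (H2A.W) and AT5G02570 (H2B) converge with 135 bases between them.

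The promoters were searched for letters known from plant histone genes. Windows ran from 250 bases before to 50 bases after each gene start annotated in TAIR10.1, on both strands. The octamer CGCGGATC was found in 10 of the 41 windows, against 40 of 27443 windows of all genes (0.146%). These 10 comprised 3 of 5 H3.1, 2 of 8 H4 and 2 of 4 canonical H2A genes, and 1 gene each of H3.3, H2A.W and H1. The hexamer ACGTCA was found in 9 of 10 H2B windows, against 9.19% of all windows, and in 0 of the 4 canonical H2A windows. The E2F-type letters TTTCCCGC, TTTGGCGC, TTTCGCGC or TTTGCCGC were found in 3 members, against 1.76% of all windows. Some of the windows of all genes belong to the members themselves. Only 4 of the 41 genes have the same start and end in the files, so matches and distances depend on the gene model. A match is a description of the letters and not a binding site.

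Promoter stretches of 150 bases before the start are shown for AT1G09200 and HTA10, which held 2 octamers each, and for AT2G28720 and HTA12, the members whose transcripts passed the test below. Octamers and hexamers are in capitals. They lie at chr1:2972335-2972484 (minus strand), chr1:18926661-18926810 (plus strand), chr2:12326658-12326807 (plus strand) and chr5:575075-575224 (plus strand) of TAIR10.1.
AT1G09200: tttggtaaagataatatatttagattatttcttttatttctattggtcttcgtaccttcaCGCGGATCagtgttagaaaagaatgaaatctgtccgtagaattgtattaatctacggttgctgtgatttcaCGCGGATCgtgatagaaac
HTA10: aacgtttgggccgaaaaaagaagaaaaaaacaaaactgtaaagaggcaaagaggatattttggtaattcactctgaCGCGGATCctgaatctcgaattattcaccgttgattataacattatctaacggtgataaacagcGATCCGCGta
AT2G28720: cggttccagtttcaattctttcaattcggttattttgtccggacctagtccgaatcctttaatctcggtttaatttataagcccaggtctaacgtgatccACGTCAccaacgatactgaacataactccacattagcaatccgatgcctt
HTA12: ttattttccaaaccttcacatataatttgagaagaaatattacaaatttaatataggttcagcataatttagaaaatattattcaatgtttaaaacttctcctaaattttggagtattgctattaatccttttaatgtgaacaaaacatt
AT2G28720 held a single hexamer, which starts 50 bases before the TAIR10.1 gene start, and the HTA12 window held neither motif. In the files AT2G28720 starts at 12326978 against 12326808 in TAIR10.1, and HTA12 at 575382 against 575225. The bases just before these file starts were not searched.

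**Figure D1:**
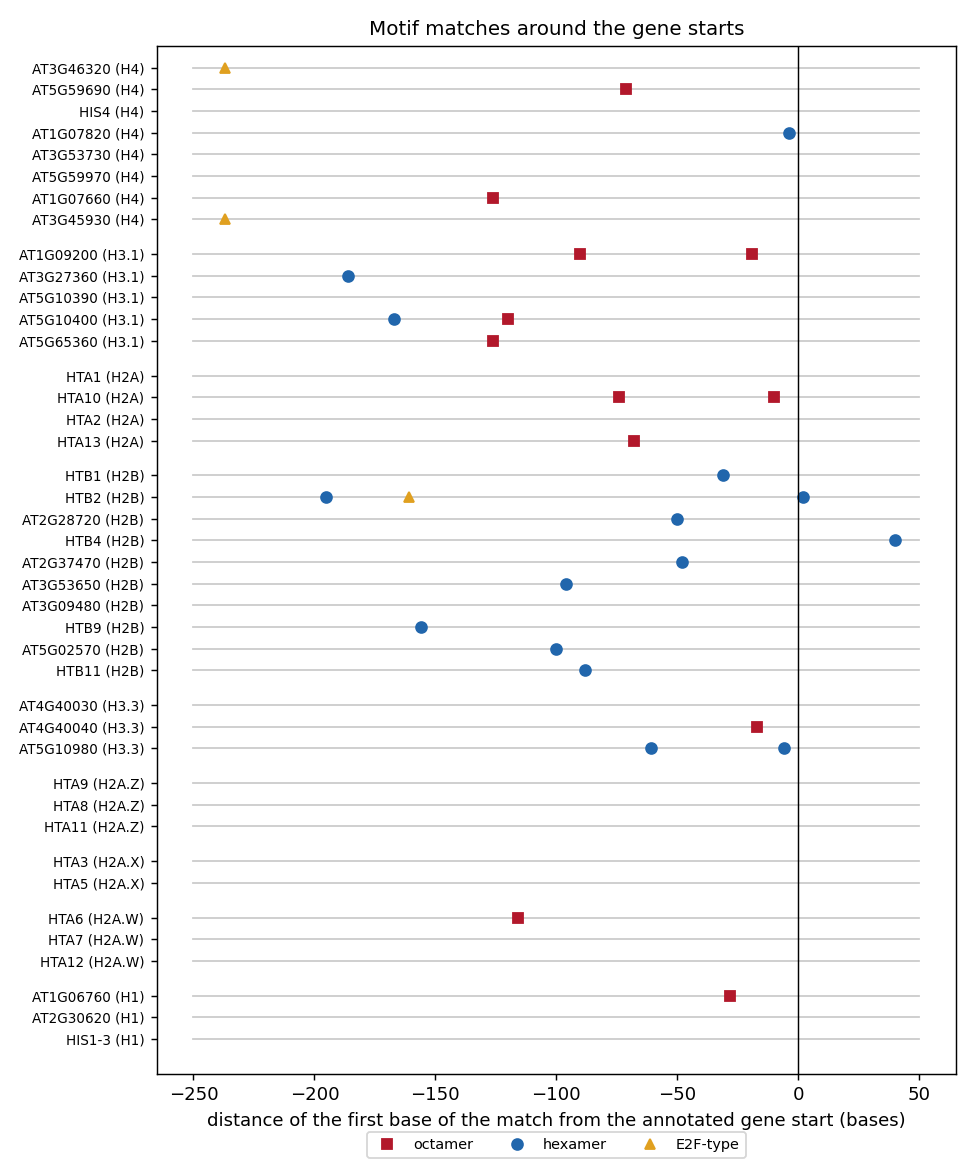
Matches of the octamer (squares), hexamer (circles) and E2F-type letters (triangles) around the annotated start of each of the 41 histone genes. The x axis gives the distance of the first base of a match from the gene start in bases, and each grey line is the window searched. Hexamers mark 9 of 10 H2B genes, and octamers fall mostly in H3.1, H4 and canonical H2A genes.

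Total counts were 20085917 to 20127269 in the BAP libraries and 19957748 to 20026876 in the DMSO libraries. Levels are counts per 1e6 counts of the library (CPM) with library sizes scaled by trimmed mean of M values (TMM), and 1 read was worth about 0.05 CPM. The biological coefficient of variation over all tested genes was 0.102. BAP library 1 gave the highest of the BAP values for 39 of the 41 histone genes, and DMSO library 3 the highest of the DMSO values for 25. Markers of the parts that had been cut away were still read. The summed level of 7 root tip markers was 21.3 to 29.1 CPM in the BAP libraries and 30.3 to 35.1 CPM in the DMSO libraries, and that of 4 lateral root markers was 7.09 to 7.56 CPM in the BAP libraries and 33.8 to 34.8 CPM in the DMSO libraries. None of these 11 markers was at 0 in any library. The root tip genes WOX5 and PLT2 (2 of 7) and the lateral root genes LBD16, LBD29, LBD18 and GATA23 (4 of 4) were called lower. The summed level of 3 leaf genes was 26.6 to 68.2 CPM in the BAP libraries and 20.8 to 24.0 CPM in the DMSO libraries, and RBCS1A and CAB1 (2 of 3) were called higher. The 6 markers of root tissues, among them endodermis, phloem and root hair genes, were read in every library, with a summed level of 153.0 to 194.1 CPM in the BAP libraries and 131.7 to 165.4 CPM in the DMSO libraries. Of these the phloem gene SUC2 (1.07 ± 0.19, SE) and the root hair gene COBL9 (0.70 ± 0.24, SE) were called higher, the groups overlapping for COBL9. APL, another phloem gene, and SHR, a regulator made in the stele, had log2 fold changes of 0.41 ± 0.12 and -0.40 ± 0.08 (SE). These 2 values passed the p threshold and missed the fold threshold. EXPA7, another root hair gene, and the endodermis gene CASP1 had 0.068 ± 0.361 and 0.193 ± 0.175 (SE) and were not called. The part of these markers in the histone values was not tested.

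All 41 histone genes passed the filter on low counts, and the lowest count of any of them in a library was 27. Per kb of exon, HTB11 (H2B) was highest, with 264.9 CPM per kb in BAP roots and 262.3 CPM per kb in DMSO roots. HTB9 (H2B) and AT5G10980 (H3.3) followed in BAP roots, at 242.3 and 231.8 CPM per kb, and had 226.7 and 235.9 CPM per kb in DMSO roots. AT1G06760 (H1) had 195.1 CPM per kb in BAP roots and 240.1 CPM per kb in DMSO roots, where it was second to HTB11. AT5G02570 (H2B) was lowest, with 4.30 CPM per kb in BAP roots and 2.70 CPM per kb in DMSO roots. HIS1-3 (H1), HTA12 and AT3G09480 (H2B) also lay below 15 CPM per kb in both groups. A few genes carried most of several classes. HTA10 held 51.4% of the level per kb of the 4 canonical H2A genes, HTA9 65.0% of the 3 H2A.Z genes, HTA6 66.6% of the 3 H2A.W genes and AT1G06760 62.1% of the 3 H1 genes. The H2B, H3.1 and H4 classes were shared more evenly, with 24.8% in HTB11, 36.4% in AT5G65360 and 24.6% in AT5G59690. Exon lengths are those of TAIR10.1, in which 4 of the 41 genes have the same start and end as in the files, so levels per kb are approximate.

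**Figure D2:**
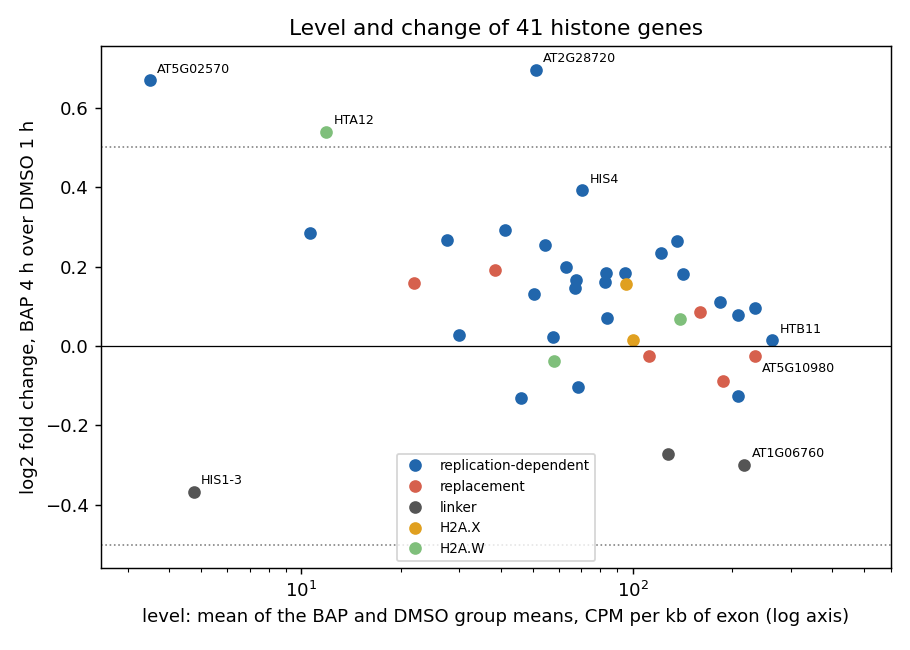
Level against change for the 41 histone genes. The x axis is CPM per kb of exon, averaged over the BAP and DMSO group means, on a log axis, and the y axis is the log2 fold change of BAP over DMSO with dotted lines at 0.5 in either direction. The genes past 0.5 include AT5G02570 and HTA12, which are among the 4 lowest in level.

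In BAP roots 2 histone genes were higher and 0 were lower than in DMSO roots. To be called, a gene needed an adjusted p no higher than 0.05 (edgeR quasi-likelihood test, Benjamini-Hochberg over 20987 genes) and a log2 fold change of 0.5 or more in size. By this rule 22.9% of all tested genes were called, 11.6% higher and 11.4% lower. Among the histone genes 2 had a negative value at an unadjusted p under 0.05 in edgeR, and DESeq2 also called 2 higher and 0 lower. In bulk roots, fewer cells of a type and less RNA per cell cannot be told apart. AT2G28720, an H2B gene, had 74.0, 62.2 and 53.7 CPM in the BAP libraries, against 41.2, 38.0 and 38.0 CPM in the DMSO libraries. Every BAP value lay above every DMSO value. The log2 fold change was 0.70 ± 0.11 (SE), with an adjusted p of 0.00161 (edgeR) and a 95% interval of 0.44 to 0.95. HTA12, an H2A.W gene of heterochromatin, had 23.0, 21.6 and 19.2 CPM in the BAP libraries, against 14.3, 15.1 and 14.4 CPM in the DMSO libraries. Its groups also did not overlap, and its log2 fold change was 0.54 ± 0.09 (SE) with an adjusted p of 0.00179 (edgeR). Without BAP library 1 the HTA12 value was 0.48 and the gene was no longer called, whereas AT2G28720 was called whichever of the 6 libraries was left out, at 0.57 to 0.80. In TAIR10.1 the HTA12 gene model overlaps AT5G02570 on the opposite strand, and 34.8% of its 50-base exon stretches are shared with that gene. The kit named in the labels does not keep strand, so reads of the 2 genes cannot be told apart there. In the coordinates of the files the 2 genes do not overlap.

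**Figure D3:**
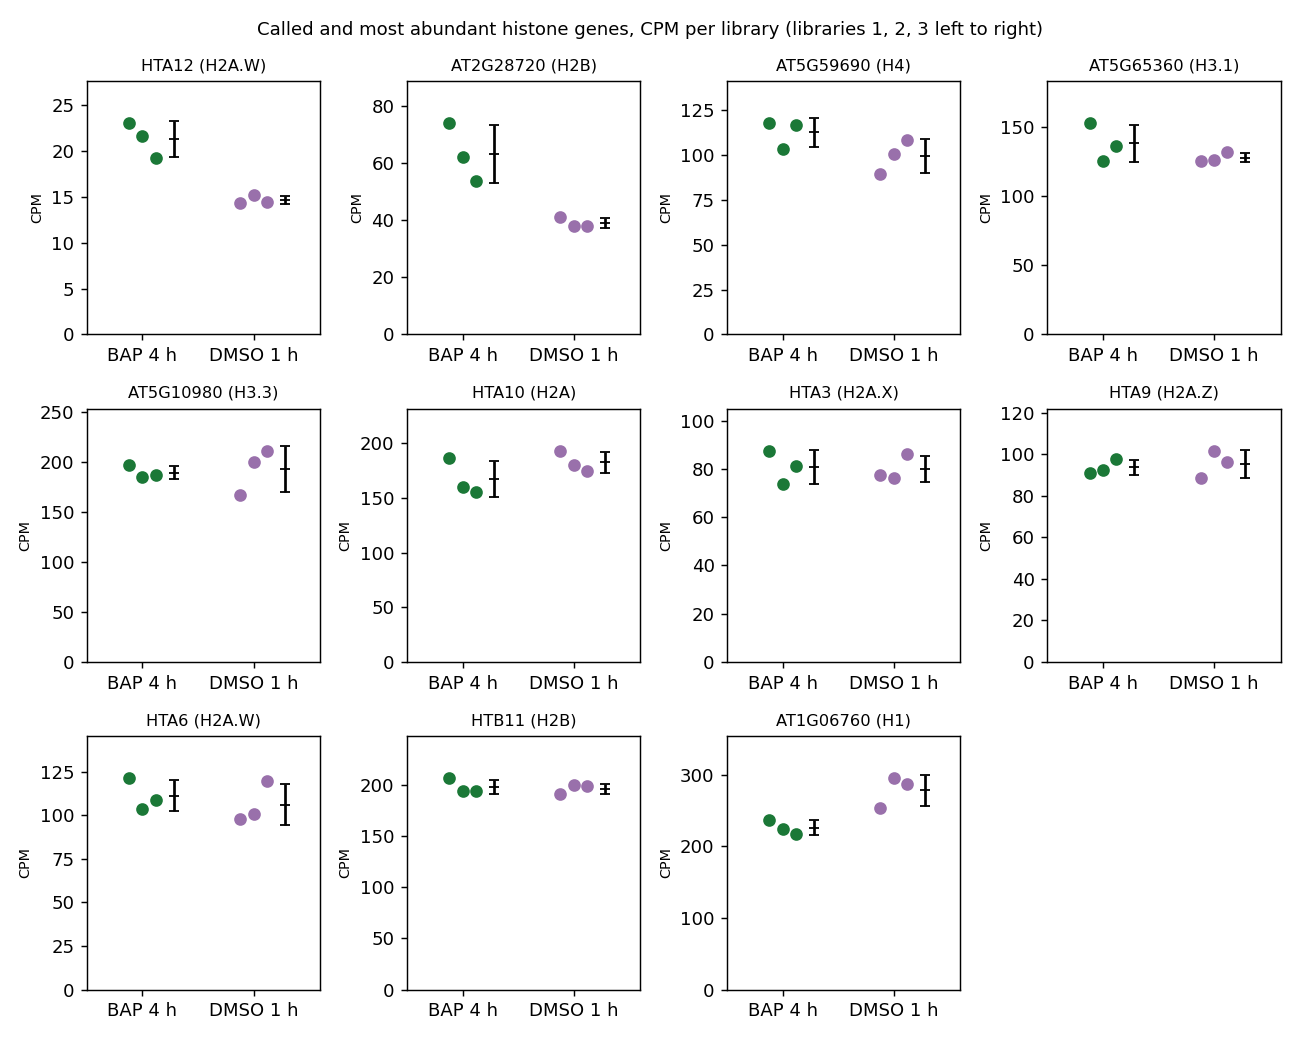
CPM in each library for the called histone genes and the most abundant gene of each class. Points are libraries 1, 2 and 3 from left to right, BAP roots at the left in green and DMSO roots at the right in purple, and the bar beside them is the mean ± SD (n = 3). HTA12 and AT2G28720 are the panels with a gap below the BAP points, and the H1 gene AT1G06760 is the panel with all BAP points below the DMSO points.

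An adjusted p of at most 0.05 at any fold was reached by 8 of the 41 genes, against 37.9% of all tested genes. Besides the called ones these were HIS4, AT3G46320 and AT3G45930 (H4), AT3G27360 (H3.1), and the H1 genes AT1G06760 and AT2G30620, named here after their values were seen. The count was 6 with DESeq2 and 5 with no filter beyond 1 read. It was 4 without BAP library 1, BAP library 3 or DMSO library 2, 5 without DMSO library 1, and 9 without BAP library 2 or DMSO library 3. Groups of libraries did not overlap for 14 of the 41 genes, against 51.4% of all tested genes. In 12 of these the BAP values were the higher ones, against 24.7% of all tested genes, and in 2 the lower. For 34 of the 41 genes the 95% interval of the log2 fold change lay wholly within 0.5 in either direction.

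Among the 27 replication-dependent genes, 1 was called higher and 0 lower, against 11.6% and 11.4% of all tested genes. The median log2 fold change was 0.16, against 0.00 over all tested genes, and 24 of 27 values were positive (88.9%), against 10503 of 20987 tested genes. All 27 of these genes had their highest BAP value in library 1. In that library 24 of 27 genes exceeded every DMSO library, against 9 in BAP library 2 and 17 in BAP library 3. All BAP values lay above all DMSO values for 8 of 27 genes, against 2 of the 6 replacement genes and 24.7% of all tested genes. Leaving out each library in turn gave medians of 0.11 to 0.22, and 21 of 27 values were positive without BAP library 1.

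The H4 genes had a median log2 fold change of 0.18, with 7 of 8 values positive. AT5G59690, the most abundant of them per kb, had 117.7, 103.1 and 116.9 CPM in the BAP libraries, against 89.3, 100.3 and 108.1 CPM in the DMSO libraries. These groups overlapped, and the log2 fold change was 0.18 ± 0.09 (SE) with an adjusted p of 0.142 (edgeR). HIS4 had the largest H4 difference, with 61.6, 53.9 and 56.5 CPM in the BAP libraries, against 42.1, 39.6 and 49.2 CPM in the DMSO libraries. Its log2 fold change of 0.39 ± 0.09 (SE) passed the p threshold with an adjusted p of 0.0113 (edgeR) and missed the fold threshold. AT3G46320 and AT3G45930, which share much of their sequence, had log2 fold changes of 0.29 ± 0.10 and 0.25 ± 0.09 (SE). AT3G53730 was the one H4 gene with a negative value, -0.10 ± 0.08 (SE).

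All 5 H3.1 values were positive, from 0.11 to 0.27, with a median of 0.20. AT5G65360, the most abundant H3.1 gene, had 152.8, 125.8 and 136.0 CPM in the BAP libraries, against 125.5, 126.5 and 132.0 CPM in the DMSO libraries. BAP library 2 lay inside the DMSO range, and the log2 fold change was 0.11 ± 0.08 (SE) with an adjusted p of 0.316 (edgeR). AT1G09200, which holds 2 octamers, had 126.4, 105.7 and 109.7 CPM in the BAP libraries, against 92.2, 87.9 and 104.3 CPM in the DMSO libraries. The groups did not overlap, by a gap of little more than 1 CPM, and the adjusted p of 0.0527 (edgeR) missed the threshold at a log2 fold change of 0.26 ± 0.09 (SE). AT3G27360 reached an adjusted p of 0.0444 (edgeR) at 0.27 ± 0.09 (SE), and 328 of its bases overlap another gene on the same strand.

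The canonical H2A genes had values on both sides of 0. Their median log2 fold change was -0.03, and the range was -0.13 to 0.16. HTA10, the most abundant, had 186.3, 160.2 and 155.1 CPM in the BAP libraries, against 192.9, 180.3 and 174.1 CPM in the DMSO libraries. The groups overlapped through BAP library 1, and the log2 fold change was -0.13 ± 0.09 (SE) with an adjusted p of 0.284 (edgeR). HTA1, HTA2 and HTA13 had values of -0.13, 0.16 and 0.07. No test of the difference between these genes and the H4 or H3.1 genes was made.

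The 10 H2B values were all positive and ranged from 0.01 to 0.70, with a median of 0.13. HTB11, the most abundant, had 206.1, 194.2 and 194.0 CPM in the BAP libraries, against 190.7, 199.4 and 198.7 CPM in the DMSO libraries. Its log2 fold change was 0.01 ± 0.06 (SE) with a 95% interval of -0.13 to 0.16. HTB4, HTB9, HTB1 and HTB2 had values of 0.08, 0.10, 0.16 and 0.23 and were not called. The spread within the class came from its less abundant genes. AT5G02570 had 3.00, 2.09 and 1.65 CPM in the BAP libraries, against 1.58, 1.35 and 1.30 CPM in the DMSO libraries, from 27 to 58 reads. These groups did not overlap, and the log2 fold change of 0.67 ± 0.26 (SE) had an adjusted p of 0.0700 (edgeR), so it was not called. In TAIR10.1 this gene shares 100.0% of its exon stretches with HTA12, whose model overlaps it on the opposite strand. The kit does not keep strand, so reads of these genes cannot be told apart there. In the coordinates of the files these genes do not overlap. Whether the AT5G02570 value is separate from that of HTA12 was not tested. AT3G09480 had a log2 fold change of 0.28 ± 0.14 (SE), and AT2G37470 and AT3G53650 had values of 0.02 and 0.03.

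**Figure D4:**
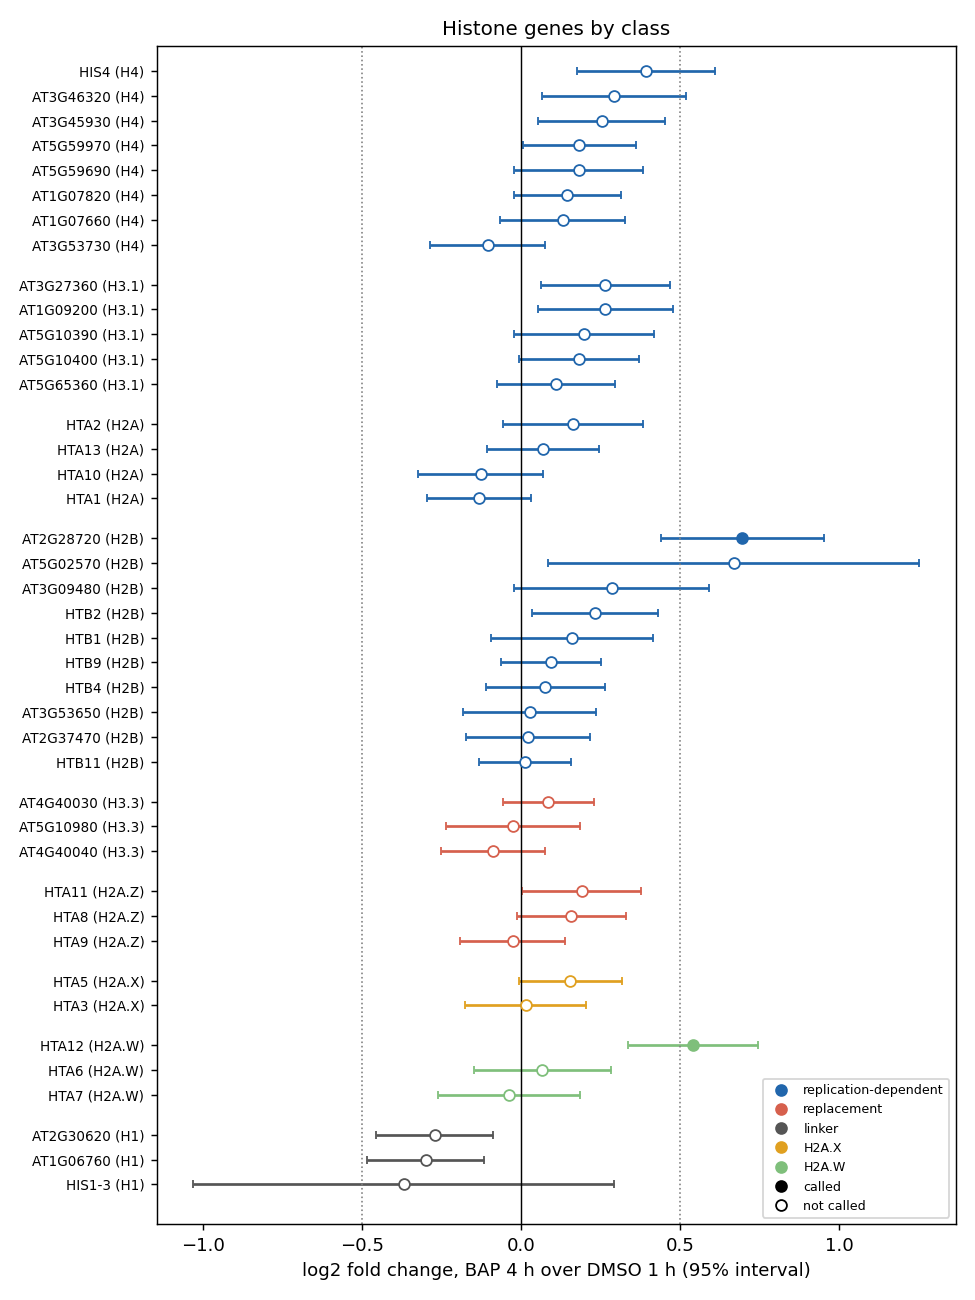
Log2 fold change of BAP over DMSO for each of the 41 histone genes, grouped by class, with 95% intervals from the edgeR fit. Filled points are called, open points are not, and dotted lines mark 0.5 in either direction. Nearly all points lie between these lines, H4, H3.1 and H2B mostly to the right of 0 and all 3 H1 genes to the left.

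Among the 6 replacement genes 0 were called in either direction by edgeR, against 22.9% of all tested genes. In edgeR 1 of the 6 had an unadjusted p under 0.05. DESeq2 also called 0. The median log2 fold change was 0.03, with 3 of 6 values positive, and the 95% interval of each of the 6 lay within 0.5 in either direction. AT5G10980, the most abundant H3.3 gene, had 196.9, 184.9 and 187.1 CPM in the BAP libraries, against 167.6, 200.0 and 211.3 CPM in the DMSO libraries. The BAP values fell inside the DMSO range, and the log2 fold change was -0.03 ± 0.09 (SE) with a 95% interval of -0.24 to 0.18. AT4G40030 and AT4G40040, the neighbouring H3.3 genes, had values of 0.09 ± 0.06 and -0.09 ± 0.07 (SE). HTA9, the most abundant H2A.Z gene, had 90.9, 92.4 and 97.8 CPM in the BAP libraries, against 88.4, 101.6 and 96.2 CPM in the DMSO libraries. Its log2 fold change was -0.03 ± 0.07 (SE), with overlapping groups. HTA8 and HTA11, the less abundant H2A.Z genes, had values of 0.16 and 0.19 and were not called.

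The summed level of the replication-dependent genes was 2406, 2090 and 2165 CPM in the BAP libraries, against 1976, 2021 and 2149 CPM in the DMSO libraries. BAP library 2 lay below DMSO library 3, so the groups overlapped. The summed level of the replacement genes was 861.8, 837.9 and 821.0 CPM in the BAP libraries, against 796.4, 877.4 and 853.1 CPM in the DMSO libraries. Per kb, H3.1 made up 49.6%, 46.2% and 48.6% of H3.1 plus H3.3 in the BAP libraries, against 45.5%, 42.9% and 45.9% in the DMSO libraries. The lowest BAP share stood just above the highest DMSO share. Canonical H2A made up 69.5% ± 1.98 of canonical H2A plus H2A.Z in BAP roots and 70.8% ± 1.69 in DMSO roots (SD, n = 3 each). The 2 groups of genes were described side by side and their difference was not tested.

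Octamer and hexamer matches did not separate the replication-dependent genes by their values. The 7 genes with an octamer had a median log2 fold change of 0.13, against 0.17 in the 20 without. The 12 genes with a hexamer had a median of 0.15, against 0.18 in the 15 without. AT2G28720 and HTB11, at either end of the H2B range, both held a hexamer.

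H2A.X, H2A.W and H1 were kept apart from both groups. Of the H2A.X genes, HTA3 had 87.5, 73.6 and 81.2 CPM in the BAP libraries, against 77.3, 76.3 and 86.0 CPM in the DMSO libraries. These groups overlapped, with a log2 fold change of 0.02 ± 0.08 (SE), and 259 bases of HTA3 overlap a gene on the opposite strand. HTA5, the other H2A.X gene, had a value of 0.16 ± 0.07 (SE) with an adjusted p of 0.118 (edgeR). HTA6, the most abundant H2A.W gene, had 121.1, 103.7 and 108.9 CPM in the BAP libraries, against 98.1, 100.8 and 119.4 CPM in the DMSO libraries. Its log2 fold change was 0.07 ± 0.09 (SE), and that of HTA7 was -0.04 ± 0.10 (SE), and HTA12 was the one gene of its class that was called.

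The H1 genes were the one class in which every value was negative. AT1G06760, the most abundant, had 237.1, 224.3 and 217.1 CPM in the BAP libraries, against 253.3, 294.9 and 286.6 CPM in the DMSO libraries. All BAP values lay below all DMSO values, and the log2 fold change was -0.30 ± 0.08 (SE) with an adjusted p of 0.0183 (edgeR). AT2G30620 had 201.2, 193.9 and 185.8 CPM in the BAP libraries, against 210.6, 245.1 and 245.1 CPM in the DMSO libraries. Its log2 fold change was -0.27 ± 0.08 (SE) with an adjusted p of 0.0282 (edgeR). Both passed the p threshold and missed the fold threshold. AT1G06760 no longer passed without BAP library 2 or BAP library 3, with adjusted p up to 0.0681 (edgeR). AT2G30620 still passed without DMSO library 1 and no longer passed when any of the other 5 libraries was left out, with adjusted p of 0.00803 to 0.0959 (edgeR) over the 6 fits. HIS1-3, the H1 gene known for induction by drought and abscisic acid, had 3.73, 4.97 and 3.34 CPM in the BAP libraries, against 3.52, 7.62 and 4.37 CPM in the DMSO libraries. These groups overlapped, and the log2 fold change of -0.37 ± 0.29 (SE) was not called. DMSO library 2, which gave the highest HIS1-3 value, also had the highest summed level of 6 drought and abscisic acid genes, 575.5 CPM against 372.0 to 473.2 CPM in the other DMSO libraries. Of these genes RD29A, RD29B and RAB18 were called lower and KIN1 was called higher. Without DMSO library 2 the HIS1-3 value was 0.01. A link between the HIS1-3 value and these genes was not tested.

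The genes with which histone genes share S phase were listed beside them. A list of 20 genes of replication (the MCM helicase, fork proteins, nucleotide synthesis, E2F factors and A-type cyclins) had a median log2 fold change of 0.40, with 16 of 20 at a positive value and an adjusted p of at most 0.05, against 18.5% of all tested genes. Of the 20 genes 3 were called higher, against 11.6% of all tested genes. They were MCM6 of the replicative helicase (0.54 ± 0.08, SE), POLA2 of DNA polymerase alpha (0.67 ± 0.09, SE) and RNR1, the large subunit of ribonucleotide reductase (0.56 ± 0.07, SE). The values of MCM6 and RNR1 stood close to the fold threshold and fell below it without BAP library 1, and that of MCM6 also without DMSO library 2. Leaving out BAP library 1 left 1 of the 20 genes called, and leaving out BAP library 2 gave 6. All BAP values lay above all DMSO values for 17 of the 20 genes, against 8 of the 27 replication-dependent histone genes. Over all tested genes this held for 24.7%. The counts of the 2 lists come from the same libraries and their difference was not tested.

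The 6 mitosis genes had a median log2 fold change of -0.15. Of these 0 were called by edgeR or DESeq2, against 22.9% of all tested genes called by edgeR. In edgeR 1 of the 6 mitosis genes had an unadjusted p under 0.05. Library by library, the median of the replication-dependent histone genes stood 0.26, 0.05 and 0.19 above the DMSO mean on the log2 scale in BAP libraries 1, 2 and 3. The mitosis median was -0.003, -0.30 and -0.21 in the same libraries, and the S-phase median 0.51, 0.33 and 0.37. Library 1 was the highest and library 2 the lowest of the BAP libraries in all 3 sets. In the DMSO libraries, library 3 was the highest in all 3 sets. The part of this shared library order in the histone values was not tested.

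**Figure D5:**
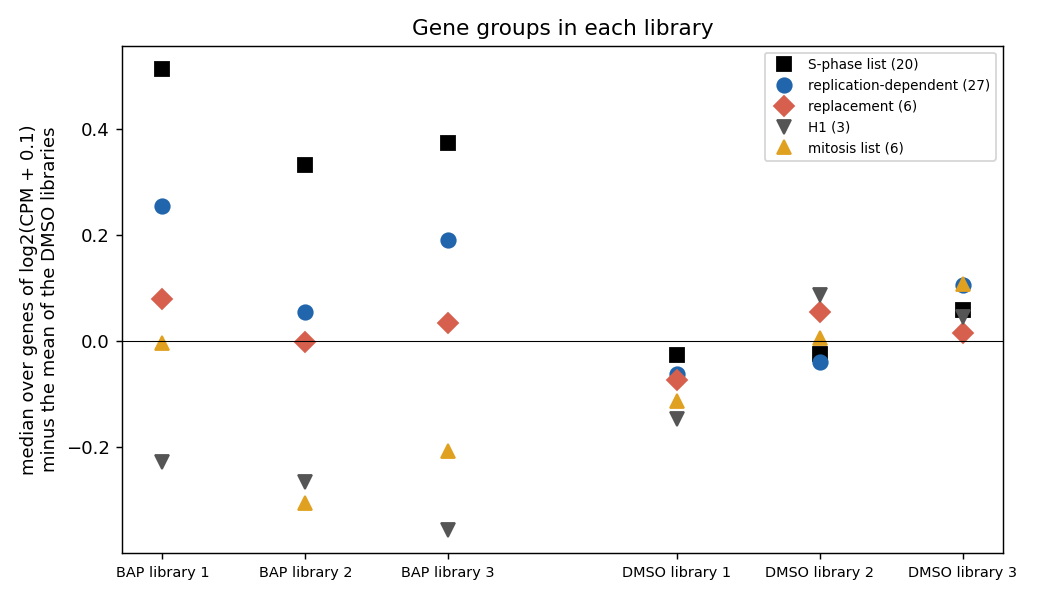
Medians of gene groups in each library. The y axis is the median over genes of log2(CPM + 0.1) minus the mean of the DMSO libraries, and the number of genes is in the legend. BAP library 1 is the highest of the BAP libraries for the S-phase, replication-dependent, replacement and mitosis groups. H1 lies below 0 in every BAP library.

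Histone chaperones bind free histones and hand them to DNA. Of 21 chaperone and exchange genes, 1 was called higher, against 11.6% of all tested genes, and 0 lower. Their median log2 fold change was 0.09, and 5 of 21 had a positive value and an adjusted p of at most 0.05, near the 18.5% of all tested genes. The called gene was FAS2, a subunit of chromatin assembly factor 1 (CAF-1), which deposits H3.1 and H4 at the fork. It had 240, 192 and 188 reads in the BAP libraries, against 122, 120 and 166 reads in the DMSO libraries. Every BAP value lay above every DMSO value, and the log2 fold change was 0.68 ± 0.16 (SE) with an adjusted p of 0.00998 (edgeR). The median of the 3 CAF-1 genes was 0.44 and that of the 7 NAP1, NRP and FACT genes 0.27. The 3 genes of the ASF1 and NASP group, chaperones of H3 and H4, had a median of -0.127. All 3 of their values were negative, from -0.132 to -0.081, and 0 were called. The 5 genes of the HIRA and ATRX group, which deposits H3.3, had a median of 0.10, and the 3 genes of the SWR1 complex, which places H2A.Z, one of -0.20. None of these 8 was called by edgeR, with 2 at an unadjusted p under 0.05, and 0 were called by DESeq2.

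Outside the 41 genes, 9 further histone genes were listed, among them the centromeric H3 gene CENH3 and genes known from pollen or of little studied H3 type. The filter kept 4 of the 9. CENH3 was not called, at 0.22 ± 0.15 (SE), from 113 to 159 reads in the BAP libraries and 116 to 126 reads in the DMSO libraries. AT1G13370, an H3 gene, was called higher from 15, 13 and 19 reads in the BAP libraries, against 6, 9 and 3 reads in the DMSO libraries. Its log2 fold change was 1.44 ± 0.39 (SE) with an adjusted p of 0.0186 (edgeR), on a level of under 1 CPM, and it was not called by DESeq2 or without BAP library 3 or DMSO library 3.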

How the data were processed

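Total RNA from 3 BAP 4 h and 3 DMSO 1 h root samples was made into libraries with a TruSeq RNA v2 kit. Per the study's methods and the submitters' processing notes, the authors checked reads with FastQC, trimmed them, mapped them with Bowtie2 to TAIR10 and counted them per gene with HTSeq. The deposited values are raw counts per gene with no normalization, and strand use, versions and the handling of multiple matches were not given in the sources used here. The replicates are described as biological.

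The filterByExpr filter (10 as the minimum count, 15 as the minimum total) left 20987 of 33602 genes. Library sizes were scaled by TMM, and edgeR 4.0.16 (R 4.3.3) fitted treatment with its quasi-likelihood F test. Calls needed a Benjamini-Hochberg adjusted p no higher than 0.05 and a log2 fold change of 0.5 or more in size. The SE is the log2 fold change divided by the square root of F. The fit was tested on simulated data. The alternatives were DESeq2 1.42.0, other scalings and filters, other fold thresholds, GC content correction (loess, span 0.5), the replicate number as a block, and each library left out in turn. Intervals on single counts were not used, and a count of 0 would allow up to 3 counts. Values in every library are given for called members and for the most abundant member of each class. HIS4, AT1G09200, AT5G02570, AT2G30620 and HIS1-3 are also given by library, outside this rule and with their values known. Genes of other lists are named if called. CENH3, APL, SHR, EXPA7 and CASP1 are named though not called. Members and lists were chosen with earlier results of these data known. No set test was made. Sequences and exon lengths are from RefSeq TAIR10.1, and gene distances from the files.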

Additional observations from a re-analysis of the deposited data

How the results depend on the processing

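The number of histone genes called higher was 2 and stayed 2 with DESeq2, DESeq2 size factors, upper-quartile scaling, GC content correction, no filter beyond 1 read and a mean of at least 1 CPM. It was 3 with the replicate number as a block, with or without GC correction, when AT5G02570 passed (2 replication-dependent genes). All exon stretches of AT5G02570 in TAIR10.1 are shared with HTA12, so whether this call is separate from that of HTA12 is uncertain. Deviations of same-numbered libraries were correlated at 0.212, 0.0508 and 0.291, and those of differently numbered ones at -0.285 to 0.0664. The same-numbered value was the highest for BAP libraries 1 and 3 and not for BAP library 2. The labels name no shared batch for the numbers, so the main fit did not take them as pairs. Whether they are pairs was not tested. The block gave 2474 genes higher and 2455 lower over all genes. Without a fold threshold 3887 genes were higher and 4061 lower, with 6 histone genes higher and 2 lower, 5 replication-dependent genes, 5 chaperone genes and 16 S-phase genes higher. With a fold threshold of 1 on the log2 scale, 1099 genes were higher and 1072 lower, with 0 histone, 0 chaperone and 0 S-phase genes. Leaving out each library in turn gave 1 to 3 histone genes higher, 1 to 2 replication-dependent genes, 1 to 2 chaperone genes and 1 to 6 S-phase genes. The cause was not tested. The sign turned in some of these fits for 8 genes with values near 0 or few reads: AT5G10980 (-0.129 to 0.027), HTA3 (-0.044 to 0.080), HTA9 (-0.089 to 0.009), HTA7 (-0.141 to 0.010), AT2G37470 (-0.047 to 0.065), AT3G53650 (-0.054 to 0.084), HTB11 (-0.018 to 0.030) and HIS1-3 (-0.593 to 0.009). AT5G02570 and HIS1-3 had fewer than 160 reads in every library, and their wide intervals limit what can be said of them.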
